A study of Mus musculus with 8 samples.

Results

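Cultured mouse aortic smooth muscle cells lacking Srf were compared with wild-type cells on one-colour microarrays designed to measure lncRNAs, long transcripts that code for no protein, together with mRNAs of the mouse. The comparison uses 4 of the 8 arrays in the study, chosen by their labels: 2 arrays of wild-type cells and 2 arrays of Srf knockout cells, both transduced with an empty adenovirus (AdEmpty). All 4 came from cells at passage 3 that received virus at a multiplicity of infection of 100 and were harvested 3 days later, so the virus is common to both groups. The labels call the knockout SRFknockout and give neither the allele, the way in which the gene was removed, nor the age of the animals. Whether the replicates of a group are different animals, different cultures or repeats of 1 culture is not given, so every p-value reflects the spread of these samples alone, and that spread may be technical. All 4 arrays lay on the same slide, per the file headers. The other arrays, 2 of wild-type cells with a Myocd adenovirus and 1 each of freshly isolated wild-type aorta and wild-type liver, enter here only where stated. They lay on the other slide, so their differences from these 4 arrays and a slide effect cannot be told apart.

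The product of Srf is serum response factor, which recognises CArG boxes in the promoters of cytoskeletal, contractile and growth-factor-responsive genes. In smooth muscle its coactivator myocardin directs it to contractile genes, while the related coactivators of the MRTF family respond to actin dynamics. Ternary complex factors, a further class of partners, bring it to immediate early genes. Serum response factor also binds its own gene. The 250 bases upstream of the Srf start site are shown because they carry the element that defines the factor's targets. Those of Tfrc and G6pd2 are shown because these were the named genes that changed in the knockout. All are from RefSeq on GRCm38.p6 and read 5′ to 3′, with CArG boxes in capitals.

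Srf, chr17:46556163-46556412 (- strand): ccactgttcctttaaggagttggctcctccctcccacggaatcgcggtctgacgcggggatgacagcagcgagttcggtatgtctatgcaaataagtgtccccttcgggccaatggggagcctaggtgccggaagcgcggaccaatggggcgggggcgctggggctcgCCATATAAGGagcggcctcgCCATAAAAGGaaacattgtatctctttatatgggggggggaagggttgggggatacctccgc
Tfrc, chr16:32608646-32608895 (+ strand): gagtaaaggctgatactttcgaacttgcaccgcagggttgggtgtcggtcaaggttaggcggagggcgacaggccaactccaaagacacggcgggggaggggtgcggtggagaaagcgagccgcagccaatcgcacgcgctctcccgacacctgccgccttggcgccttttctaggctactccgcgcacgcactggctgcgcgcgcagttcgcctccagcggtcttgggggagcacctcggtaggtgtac
G6pd2, chr5:61808593-61808842 (+ strand): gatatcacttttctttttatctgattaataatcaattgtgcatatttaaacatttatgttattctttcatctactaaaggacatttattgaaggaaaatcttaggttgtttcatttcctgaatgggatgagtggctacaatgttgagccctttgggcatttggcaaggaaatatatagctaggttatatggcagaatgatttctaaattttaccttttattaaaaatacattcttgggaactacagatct

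The Srf window held 2 CArG boxes, 82 and 62 bases before the start site. A CArG box was searched on both strands in windows of 300 bases, from 250 before to 50 after each start, and 1.63% of 32851 mouse promoter windows held one. Of the 15 genes that could be named on the array, 13 matched a promoter window, and none of these held a CArG box. With 1 mismatch allowed, 21.1% of all windows had a match, and among the named genes a match was found in the Nono window. Actb and Hsp90ab1 had no entry. The upstream bases of Tfrc were 64.8% G or C and those of G6pd2 30.0%, against a median of 52.4% over all windows. A match of letters is a description of the window, and the lack of one draws nothing about binding.

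A level below is the log2 of a probe's processed intensity minus the 75th percentile of its array, so that 0 is the array's own 75th percentile. That percentile lay between 452 and 498 intensity units on the 4 arrays. Between 68.3% and 74.7% of probes were well above background. The probe-wise log2 difference between replicates had a robust SD of 0.43 in wild-type and 0.22 in knockout cells, and 5.44% of tested probes differed more than 2-fold between the wild-type replicates against 1.43% between the knockout replicates. Between a knockout and a wild-type array, 12.8% to 19.9% differed more than 2-fold. The wild-type arrays thus stood further apart than the knockout arrays. In the control spots for the 5′ and 3′ ends of transcripts, Gapdh was 0.55 and 0.33 log2 units brighter at its 5′ end on the wild-type arrays and 0.54 and 0.62 on the knockout arrays. For Pgk1 the 5′ minus 3′ difference was -3.09 and -3.57 on the wild-type and -3.91 and -3.58 on the knockout arrays. For Pgk1 both knockout values lay below both wild-type values, but the nearest of them, -3.58 and -3.57, were closer than the wild-type replicates were to each other. The part of these control values in the results was not tested.

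Probes were compared with limma over all 6 cultured arrays. The Myocd arrays add to the estimate of the spread and to the choice of tested probes, and have no part in the change itself. The log2 difference between the Myocd replicates had a robust SD of 0.22. The fit takes the same spread for every cultured group, though the wild-type replicates stood further apart, at 0.43. A probe was called at a Benjamini-Hochberg adjusted p under 0.05 over 44078 tested probes. By this rule 20.6% of tested probes were called, 12.2% higher and 8.4% lower in the knockout. These were 9096 probes, and a limma fit of the 4 compared arrays alone called 6444. Names could be given to 15 of the tested probes, from RefSeq accessions in the array files, and each of these was printed on 20 spots. The other 44063 carry identifiers that the files do not pair with genes. Neither Srf nor Myocd was among the named genes, so the knockout label was not checked against its target. None of the 52 markers listed for smooth muscle and 6 other cell types was named either, so the labelled cell type was not checked here. In RNA from whole cultures, fewer cells of a type and less RNA per cell cannot be told apart.

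Of the 15 named genes, 2 were called, Tfrc as lower and G6pd2 as higher in the knockout. Against a background of 20.6% this share is not a result about the named genes. Of the 15, 9 had a negative and 6 a positive log2 change, with a median of -0.21 against 0.07 over all tested probes. Both knockout arrays lay below both wild-type arrays for 8 genes and above them for 3, and the arrays overlapped for the other 4. Groups that did not overlap were found for 62.7% of all tested probes, so this count is near the background. The 95% interval of the change lay within 2-fold in both directions for 13 genes. On the scale of repeated spots the measurements were tight: the SD among spots of a gene on an array was at most 0.33 log2 units, a value reached by the dim probes for Gk and Ldhal6b.

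**Figure D1:**
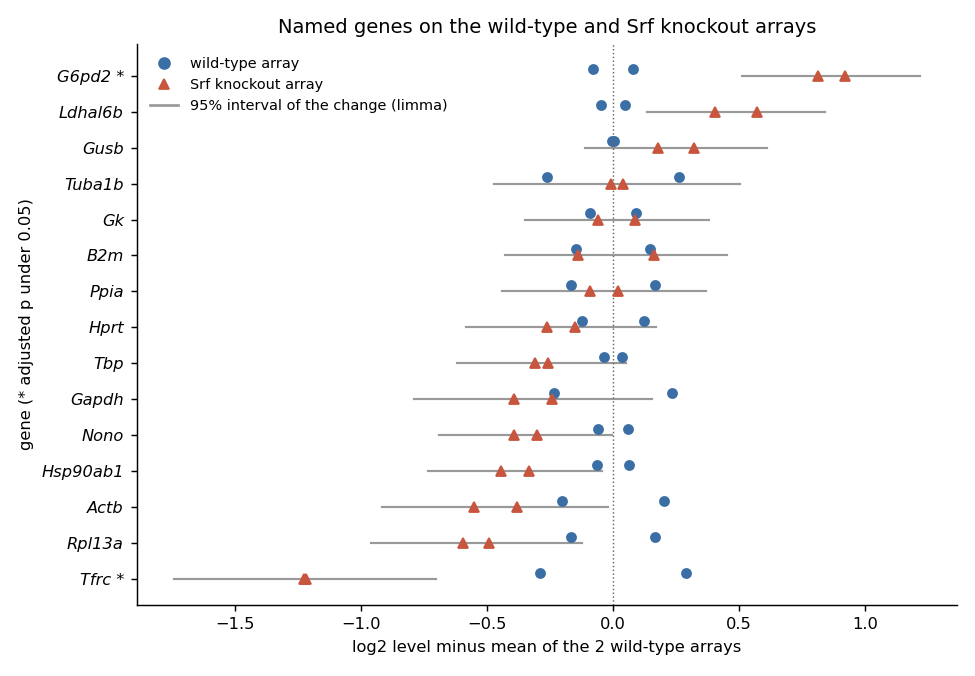
Levels of the 15 named genes on the 4 arrays, as log2 units from the mean of the wild-type arrays (horizontal axis), with genes ordered by their change. Circles are wild-type arrays, triangles knockout arrays, bars the 95% interval of the knockout change from limma, and asterisks adjusted p under 0.05; Tfrc at -1.22 and G6pd2 at 0.87 lie at the ends, and the wild-type circles are further apart than the knockout triangles for 12 of the 15 genes.

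Tfrc encodes the transferrin receptor, which takes iron into the cell and is regulated through iron-responsive elements in its mRNA. Its processed intensity was 33305 and 45877 on the wild-type arrays and 15984 and 17513 on the knockout arrays, which gave levels of 6.07 and 6.65 against 5.14 and 5.14. Both knockout values lay below the lower wild-type value by more than the wild-type replicates differed from each other (0.58). The knockout fell by 1.22 on the log2 scale, with an SE of 0.21 and a 95% interval of -1.74 to -0.70 (adjusted p = 0.0126 by limma). The call was lost without knockout replicate 1, at a limma adjusted p of 0.0862, or without knockout replicate 2, at 0.0716, with the change at -1.23 and -1.22. Over all alternatives the limma adjusted p lay between 0.00311 and 0.0862. A change larger than this in size was found for 9.02% of all tested probes. Tfrc was the only named member of a list of 10 genes of iron uptake and storage.

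Among genes of the cytoskeleton, Actb encodes cytoplasmic beta-actin and is a known target of serum response factor. Its levels were 9.19 and 9.60 on the wild-type arrays and 9.01 and 8.84 on the knockout arrays. Both knockout values lay below both wild-type values, though the nearest arrays of the groups were closer than the wild-type replicates were to each other. The difference of -0.47 on the log2 scale, with an SE of 0.18 and a 95% interval of -0.92 to -0.02, did not pass (adjusted p = 0.127 by limma). Leaving out wild-type replicate 1 gave -0.67, which passed (adjusted p = 0.0410 by limma, in a range of 0.0410 to 0.411 over the alternatives). Tuba1b, an alpha-tubulin gene, stood at 9.42 and 9.94 in wild-type and at 9.72 and 9.67 in knockout cells. The knockout values fell between the wild-type values. The change was 0.02, with a 95% interval of -0.47 to 0.51. Of 20 actin cytoskeleton and adhesion genes and 10 tubulin genes listed, Actb and Tuba1b were the only members that could be named, so neither list is described further.

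In carbohydrate metabolism, G6pd2 is a retrocopy of the X-linked glucose-6-phosphate dehydrogenase gene, whose enzyme opens the pentose phosphate pathway. Its levels were 4.22 and 4.06 in wild-type and 5.06 and 4.95 in knockout cells, from intensities of 9207 and 7620 against 15095 and 15438. The groups did not overlap, and the distance between them was several times the gap between replicates of either group. The knockout level rose by 0.87 on the log2 scale, with an SE of 0.14 and a 95% interval of 0.51 to 1.22 (adjusted p = 0.0111 by limma). The call was lost without knockout replicate 1, at a limma adjusted p of 0.102, or without knockout replicate 2, at 0.0638, with the change at 0.81 and 0.92. Over all alternatives the limma adjusted p lay between 0.00219 and 0.102. Signal from the parent gene cannot be told apart from that of the retrocopy where they share sequence. Of 19 listed genes of glycolysis and the pentose phosphate pathway, 3 were named, and 1 of these rose, namely G6pd2. Ldhal6b, a lactate dehydrogenase-like gene, was dim, with intensities of 28.9 and 24.9 in wild-type and 33.8 and 41.8 in knockout cells. Its levels did not overlap between groups, and its log2 change of 0.49 (95% interval 0.14 to 0.84, limma adjusted p = 0.0631) did not pass. Gapdh, the glycolytic dehydrogenase gene, had levels of 9.45 and 9.92 against 9.44 and 9.29. The upper knockout value differed from the lower wild-type value by less than either replicate gap, and the change of -0.32 had an interval of -0.79 to 0.16 (limma adjusted p = 0.291). Gk, the glycerol kinase gene, was at -2.20 and -2.02 in wild-type and -2.02 and -2.17 in knockout cells, and its groups overlapped.

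Of the genes for protein synthesis and folding and for RNA processing, none passed. Rpl13a, a ribosomal protein gene, had levels of 7.28 and 7.62 in wild-type and 6.96 and 6.85 in knockout cells. The groups did not overlap, and the distance between the nearest arrays equalled about the gap between the wild-type replicates. Its log2 change was -0.54 (95% interval -0.96 to -0.12, limma adjusted p = 0.0743), and under 4 of 17 alternative settings it passed, with a limma adjusted p between 0.0222 and 0.277 over all of them. Hsp90ab1, a cytosolic chaperone gene, was at 8.61 and 8.49 against 8.22 and 8.11, a change of -0.39 (limma adjusted p = 0.107). It passed under normexp background correction (limma adjusted p = 0.0342) and under median scaling (limma adjusted p = 0.0432), and over all alternatives the limma adjusted p reached 0.383. Nono encodes a nuclear RNA-binding protein of paraspeckles. Its levels were 6.68 and 6.80 against 6.44 and 6.34, a change of -0.35 (limma adjusted p = 0.135), and it passed under normexp (limma adjusted p = 0.0383, in a range up to 0.43 over the alternatives). Tbp, which encodes the TATA-binding protein of general transcription, stood at 3.17 and 3.10 against 2.87 and 2.82, a change of -0.28 (limma adjusted p = 0.195).

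The remaining named genes are used in many studies as references. Hprt, of purine salvage, had levels of 7.57 and 7.81 in wild-type and 7.54 and 7.43 in knockout cells, a change of -0.21 (95% interval -0.58 to 0.17). Gusb, the lysosomal beta-glucuronidase gene, was at 5.52 and 5.51 against 5.84 and 5.69, a change of 0.25 (95% interval -0.11 to 0.61, limma adjusted p = 0.277). The wild-type replicates of Gusb lay closer together than those of any other named gene, and both knockout arrays lay above them. Ppia, the cyclophilin A gene, stood at 9.88 and 10.21 against 10.07 and 9.96. B2m encodes beta-2-microglobulin, a part of every MHC class I molecule, and stood at 8.16 and 8.45 against 8.47 and 8.17. The groups overlapped for Ppia and for B2m, with intervals of -0.44 to 0.37 and -0.43 to 0.45. The direction of Ppia, B2m, Tuba1b and Gk changed with the scaling or with single arrays. Of 17 genes listed as common references, 12 were named, with a median change of -0.30 and with Tfrc as the only one that passed.

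Over all tested probes the median log2 change was 0.07, with quartiles at -0.28 and 0.43 and a median SE of 0.19. Called probes that rose had a median change of 1.13, and those that fell one of -0.96. At least 2-fold were 59.4% of the rises and 46.2% of the falls. At least 4-fold were 1153 rises and 320 falls, counts that include probes near background on one side, whose fold is not measured. Of these, 692 rises and 228 falls were on the 39675 probes well above background on all 4 arrays, where 4398 rises and 3406 falls were called in all. Nearly all calls separated the groups array by array: both knockout arrays lay outside the wild-type range for 5393 of 5395 rises and 3692 of 3701 falls. Beside the 62.7% of all tested probes that separated in this way, such separation alone says little about a probe. The number of calls fell when either knockout replicate was left out. The knockout group, left with a lone array, then took its spread from the other groups. Of the 9096 called probes, 9096 kept their direction without knockout replicate 1 and 9094 without knockout replicate 2. For nearly all of them both knockout arrays lay on the same side of the wild-type arrays, which fixes that direction beforehand. The kept direction is therefore no sign that the calls are stable.

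**Figure D2:**
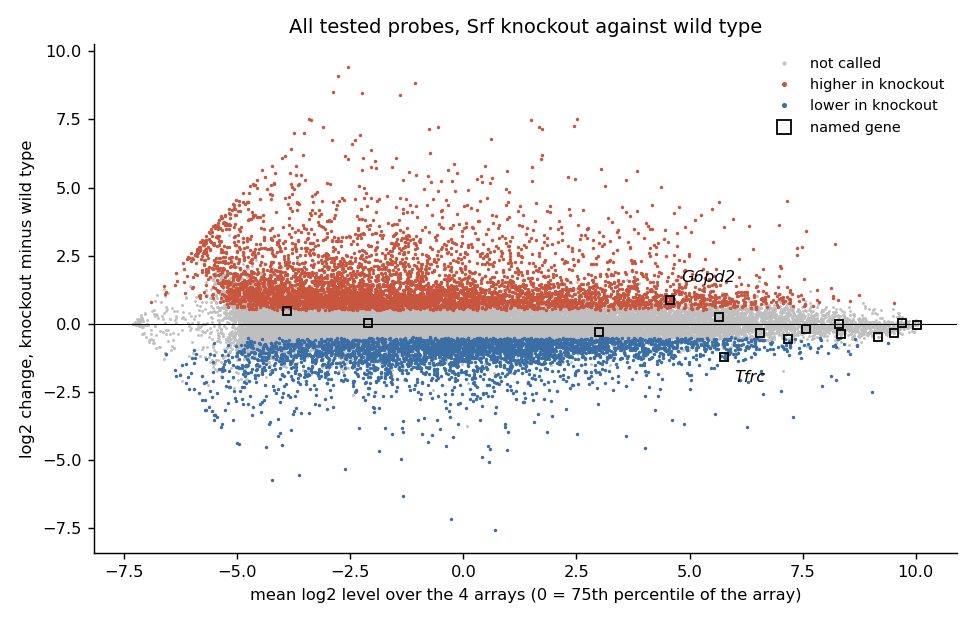
Log2 change in the knockout (vertical axis) against the mean log2 level over the 4 arrays (horizontal axis, 0 being the 75th percentile of an array) for all tested probes. Grey points were not called, red points were higher and blue points lower in the knockout, and squares are the named genes; 692 rises and 228 falls of at least 4-fold are on probes measured above background on all 4 arrays, and the folds of other, dimmer probes are not exact.

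The split between rises and falls depended on the scaling. With the 75th percentile 59.3% of the calls were rises, and with the median of each array in its place 37.7% were, at 3715 rises and 6127 falls. Quantile normalization gave 51.7% and the authors' deposited log2 values 50.9%. The median change of all tested probes moved from 0.07 with the 75th percentile to -0.11 with the median, a shift that applies to every probe alike. Of the 9096 called probes, 7415 were called again under median scaling and 8044 under quantile normalization. Tfrc and G6pd2 passed under both, with log2 changes of -1.41 and 0.68 under median scaling and of -1.32 and 0.78 under quantile normalization. They have no value here from the deposited table.

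**Figure D3:**
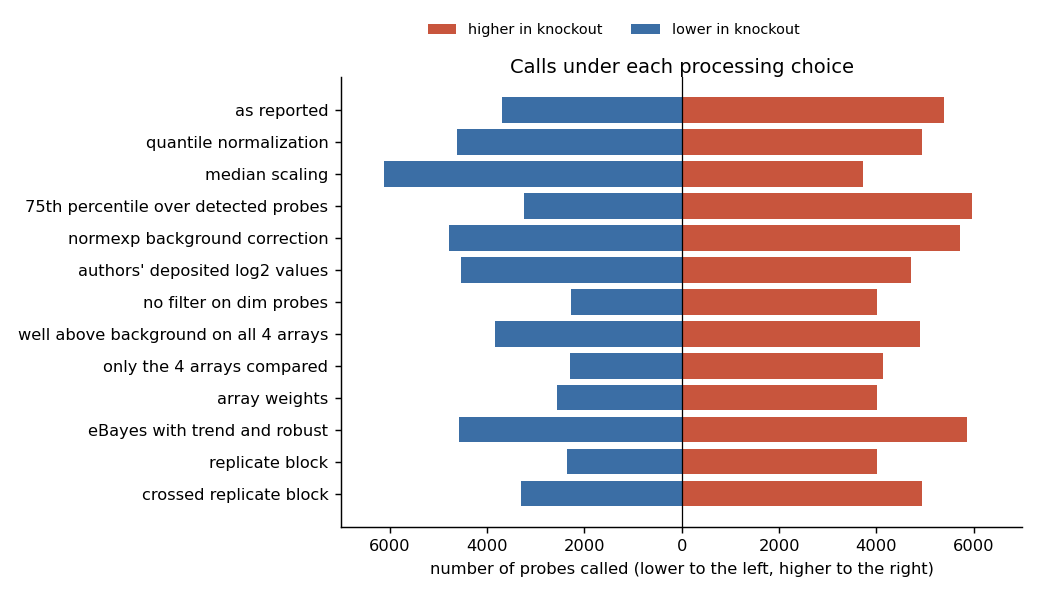
Number of probes called higher (red, to the right) and lower (blue, to the left) in the knockout under the reported setting and 12 alternatives that keep all arrays of the comparison. Rises outnumber falls in each setting except median scaling, where 6127 falls stand against 3715 rises.

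A pair of single probes shows the range. Each had the largest change in its direction of the 39675 probes measured above background in every wild-type and knockout array. ASMM10P049587 had intensities of 142 and 282 on the wild-type arrays and of 38277 and 35545 on the knockout arrays. Its levels were -1.80 and -0.69 against 6.40 and 6.16, which is 7.53 log2 units higher in the knockout, SE 0.35 (adjusted p = 0.00016 by limma). In aorta it stood at 7.83, above both cultured groups, and in liver at -0.75. ASMM10P053818 had intensities of 9121 and 12097 in wild-type cells and of 59.0 and 53.3 in knockout cells. Its levels were 4.21 and 4.73 against -2.94 and -3.22, a difference of -7.55 log2 units, SE 0.22 (adjusted p = 7.07e-05 by limma). It was bright in both tissues, at 7.77 in aorta and 10.02 in liver. Both probes were called under all 18 alternatives, with changes from 6.97 to 8.08 for the first and from -7.81 to -6.48 for the second.

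Some transcripts were measured on one side of the comparison only. Detection itself differed by array. Of all probes, 71.6% and 68.3% were well above background on wild-type replicates 1 and 2, and 70.6% and 74.7% on knockout replicates 1 and 2. The part of this difference in the counts below was not tested. Of the tested probes, 1106 were well above background on both knockout arrays and on neither wild-type array, and 246 on both wild-type arrays and neither knockout array. Of these, 696 were called as rises and 159 as falls, a direction that the choice of these probes fixes. Since a dim side gives only a bound, folds were computed against the higher of the probe's own level and the lowest level among probes well above background on that array. Where the probe's own level was the higher, it was itself not well above background, so the fold is then an estimate and no strict bound. By this measure the median was 2.01-fold for the rises and 1.99-fold for the falls, and 32 rises and 2 falls reached 16-fold. In the single aorta array, 63.2% of these rises and 32.1% of these falls were well above background, and in liver 42.5% and 18.2%. Over all probes of the array these shares were 68.9% in aorta and 62.2% in liver.

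The largest bound among the rises was that of ASMM10P051337, with intensities of 10.1 and 11.3 in wild-type and 5055 and 4641 in knockout cells. It was at least 326-fold higher in the knockout under the reported processing (limma adjusted p = 4e-05). Its fitted log2 change, no bound itself, was 8.82 and lay between 6.06, under normexp, and 8.96 over the alternatives, with a limma adjusted p of at most 0.0016. Its intensity was 6.90 and 6.07 with Myocd adenovirus and 6.12 in liver, all not well above background, and 21.4 in aorta, which was. The probe was thus bright on the knockout arrays and dim on the other arrays. The largest bound among the falls was that of ASMM10P010055, with intensities of 445 and 547 in wild-type and 9.95 and 15.0 in knockout cells. By the same measure it was 32.1-fold lower under the reported processing (limma adjusted p = 0.000122). This is no strict bound, since its own level on knockout replicate 2, -5.06, was above the lowest level well above background there, -5.11. Its fitted log2 change was -5.34 and lay between -5.56 and, under normexp, -2.85 over the alternatives, with a limma adjusted p of at most 0.00219. With Myocd adenovirus its intensities were 1300 and 1228. It was not well above background in aorta or liver, so it was measured on the 4 arrays of cultured wild-type cells, with either virus, and on none of the others.

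In 5 equal groups of tested probes ordered by mean level over the 4 arrays, rises made up between 11.3% and 12.8% of each bin. Falls made up 4.02% of the dimmest bin, 4.77% of the next, 7.97% of the middle one, 14.6% of the fourth and 10.6% of the brightest. Rises were therefore 76.0% of the calls in the dimmest bin and 46.9% in the fourth. The median change of all probes was 0.22 in the dimmest bin and -0.09 in the fourth. Between single pairs of a knockout and a wild-type array, the median of the dimmest bin was between 0.13 and 0.33, above 0 in all 4 pairs. That of the brightest was 0.17 and 0.07 against wild-type replicate 1 and -0.12 and -0.20 against wild-type replicate 2, so its direction depended on the wild-type array. The pairs share arrays, and a dim probe could be tested through the 1 group where it was high. Over probes well above background on all 4 arrays, the median of the dimmest bin was 0.13. Over the alternatives it lay between -0.02, with the authors' deposited values, and 0.27, without wild-type replicate 1. The shares by level also depended on the processing. In the dimmest bin 1124 probes rose and 354 fell with the 75th percentile, 776 and 631 with quantile normalization, and 500 and 512 with the authors' deposited values. In the brightest bin the counts were 996 rises and 934 falls with the 75th percentile, 1212 and 1061 with quantile normalization, and 1272 and 1113 with the authors' deposited values. Normexp gave 515 rises in the dimmest and 1444 in the brightest bin, so the even share of rises over the bins held for the reported setting and not for these.

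**Figure D4:**
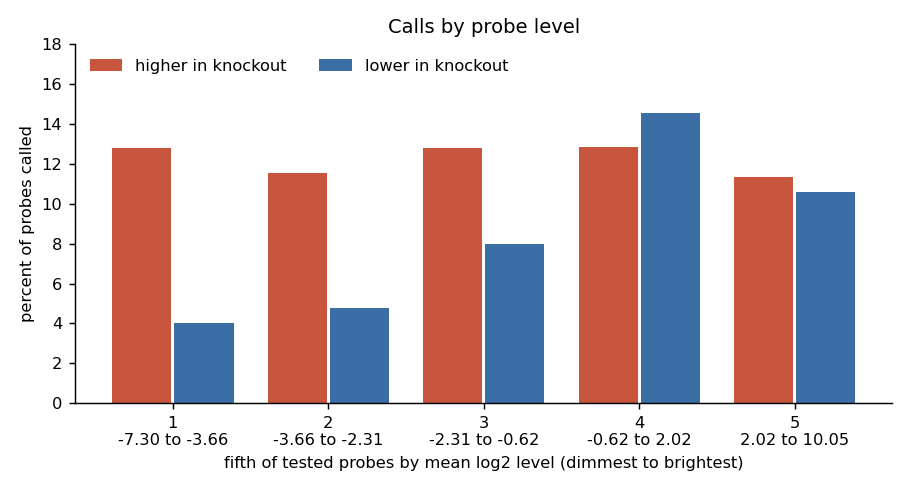
Percent of probes called higher (red) and lower (blue) in the knockout in each bin of the tested probes, from the dimmest to the brightest by mean log2 level, whose range is printed under each bin. Red bars stay between 11.3% and 12.8%, while blue bars go from 4.02% in the dimmest to 14.6% in the fourth bin.

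The shares of aorta-high probes are given here as counts with no test, since probes are not replicates. A probe was taken as aorta-high where its level in the aorta array was at least 4-fold above that in the liver array. This held for 1241 of 3700 falls (33.5%), 1114 of 5392 rises (20.7%) and 15.4% of all tested probes. Liver-high by the same measure were 5.92% of the falls, 12.6% of the rises and 11.5% of all. The median aorta minus liver difference was 0.99 log2 units for falls, 0.04 for rises and -0.43 for all tested probes. With 1 array per tissue these values have no error of their own. The 5′ minus 3′ difference of the control spots was 0.36 in aorta and -1.88 in liver for Gapdh, and -4.60 and -11.3 for Pgk1. The lowest level well above background was -4.42 in aorta and -3.52 in liver, so dim probes were measured less far down in liver. The part of these differences in the shares was not tested.

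Within bins of level the shares were as follows. In the brightest bin, 51.4% of the falls were aorta-high against 27.5% of the rises and 25.8% of all probes there. In the fourth bin the shares were 38.1%, 22.5% and 24.7%. In the dimmest bin they were 13.8%, 16.9% and 6.50%, so that among dim probes both rises and falls lay above the share of all probes. The share among bright falls was 34.6% without wild-type replicate 1 and 59.6% without wild-type replicate 2, and over all alternatives it lay between 34.6% and 63.3%. Falls of at least 4-fold were aorta-high in 37.8% of 320 cases and rises of at least 4-fold in 32.4% of 1153. The median difference between aorta and knockout cells was -0.02 for rises and -0.05 over all tested probes, and for rises it went from 0.24 in the dimmest to -0.62 in the brightest bin. For falls it was -0.75, but 0.43 in the dimmest bin and 0.54 for falls of at least 4-fold, so its direction varied with level and size.

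**Figure D5:**
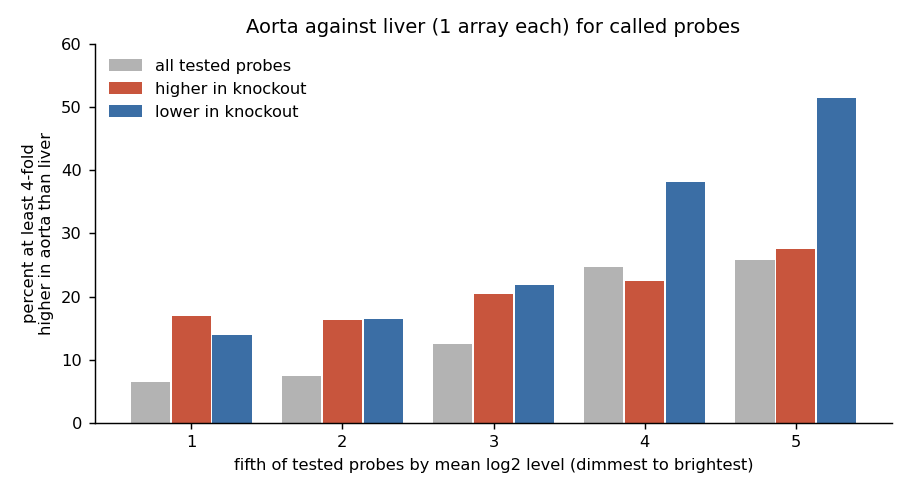
Percent of probes whose level was at least 4-fold higher in aorta than in liver (1 array each), in each bin of tested probes from the dimmest to the brightest, for all tested probes (grey), probes higher in the knockout (red) and probes lower in the knockout (blue). The blue bars stand above the grey ones in every bin, most in the brightest at 51.4% against 25.8%.

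The classes of probe identifier are described by their shares, with no test. Probes of the ASMM10P class, which makes up most of the array, were called in 21.0% of 42908 cases. In the dimmer classes, calls made up 7.57% of 436 humanlincRNA probes, 7.99% of 288 mouselincRNA probes and 9.50% of 379 ASMM10UP probes, beside 20.6% over all. Their median wild-type levels were -3.43, -3.62 and -3.03 against -1.53 for ASMM10P. The MM9LINCRNAEXON class was as dim, with a median level of -3.06, and 17.6% of its 51 probes were called. Of all tested probes in the bin with mean levels from -3.66 to -2.31, 11.5% rose and 4.77% fell. The humanlincRNA calls were 31 rises and 2 falls, the mouselincRNA calls 20 and 3, and the ASMM10UP calls 18 and 18. Of the called probes, 1 humanlincRNA and 4 mouselincRNA probes rose at least 4-fold, and none of either class fell as far. In the ASMM10UP class none rose and 3 fell as far, and in MM9LINCRNAEXON 1 rose and none fell. Over all 44078 tested probes there were 1153 such rises and 320 such falls. Counts this small are no result about a class. Many identifiers of the lincRNA classes come in pairs that share a number and differ in a + or - sign, whose meaning the files do not state. Both probes of a pair were tested for 163 numbers. In 1 pair both were called, in the same direction, in 24 pairs 1 was called, and in 138 neither. No background count of pairs was made, so these counts are no result about the pairs. The log2 changes of paired probes had a Pearson's r of -0.02 across the 163 pairs, which share their arrays.

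The ASMM10P probes carry running numbers, and the change of a probe was set against that of later numbers. Across 32760 pairs of consecutive numbers Pearson's r of the log2 change was 0.16, against 0.10 at a distance of 2, 0.06 at 10 and 0.03 at 1000. The same correlation of the difference between the wild-type replicates was 0.08 at a distance of 1 and 0.04 at 1000. Where both neighbours were called, the direction was the same in 71.8% of 1781 pairs, against 55.9% of 1324 pairs at a distance of 1000. After a called probe, the next number was called in 25.5% of cases, against 20.3% at a distance of 1000. Runs of 3 or more consecutive numbers called in one direction numbered 115 for rises and 70 for falls. The longest held 8 rises and 5 falls, and no background count of runs was made. These pairs share arrays and may share transcripts, which the files do not show, so the correlations are given as descriptions.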

How the data were processed

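Total RNA was measured on one-colour Cy3 arrays. The deposited scanner files hold a processed intensity for each spot, made with Agilent Feature Extraction (11.0.1.1, per the file headers and the submitters' processing notes). The authors also deposited log2 values for 42995 probes, whose normalization no label or header states. They followed the scanner values of the same array in the same direction (r of at least 0.997, medians from 7.16 to 7.27), and served as an alternative. The arrays use an mm9 design.

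Of 60930 probes, 44078 were tested, namely those that in 1 or more cultured groups were well above background on both arrays. Outlier spots and control spots were left out, and spots of a probe were averaged on the log2 scale. Levels are log2 intensity minus the array's 75th percentile. limma 3.58.1 in R 4.3.3 (lmFit, eBayes, two-sided, 3 residual degrees of freedom) was fitted over 6 cultured arrays. A run on simulated data gave every group the same spread, unlike these arrays, so it does not vouch for the calls here. A value was missing on 1 or more of the 4 compared arrays for 60 probes, whose fit used the arrays left. No spot was saturated, and the number of arrays limits the precision.

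Named genes were all probes with a RefSeq accession, each matched to a symbol by that accession. Of other probes, the largest change and the largest bound in each direction were named. Members and lists were chosen with earlier results of these data known. Of 19 gene lists, 14 had no named member. Normexp used the median spot signal, since the files hold no mean signal. Other alternatives changed the scaling, filter, samples, weights, eBayes settings and pairing, or left out 1 array.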

Additional observations from a re-analysis of the deposited data

How the results depend on the processing

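Leaving out single arrays gave 2701 to 13175 calls (limma), 1859 to 7661 rises and 842 to 5514 falls, lowest without knockout replicate 1 and highest without wild-type replicate 2. A group left with a lone array took its spread from the other groups. Calls numbered 3789 without knockout replicate 2. Tfrc and G6pd2 missed the threshold without either knockout replicate and passed in the other 15 of 17 alternatives. Calls of at least 2-fold numbered 4916. Falls numbered 6127 with median scaling, 2283 with no filter on dim probes and 2299 in a fit of the 4 arrays compared or without either Myocd array, all of which are the same fit. With the replicate number as a block there were 6378 calls, 4016 rises and 2362 falls. The numbers do not pair the samples by label. The deviations of same-numbered wild-type and knockout arrays had a correlation of -0.26, and a crossed replicate block, chosen after seeing the data, gave 8239 calls. Signs turned with median scaling for Gk (-0.17), B2m (-0.18) and Tuba1b (-0.17), and with quantile normalization for Gk (-0.12) and Ppia (0.012). Leaving out single arrays gave changes on both sides of 0, from -0.077 to 0.11 for Gk, -0.14 to 0.16 for B2m, -0.20 to 0.13 for Ppia and -0.25 to 0.28 for Tuba1b. None of these 4 genes passed in any setting. The humanlincRNA calls, 33 as reported, numbered 3 to 61 over the alternatives and the mouselincRNA calls, 23 as reported, 7 to 40. The 36 ASMM10UP calls became 7 or 16 when knockout replicate 1 or 2 was left out and 72 when wild-type replicate 2 was, and the 9 MM9LINCRNAEXON calls ranged from 3 to 13. The causes were not tested. Dim probes are limited by signal over background.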
